A study of Drosophila melanogaster with 23 samples.

Results

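Among the transcripts that were brightly expressed in *Drosophila* wing discs, 37 transcripts of 36 genes had a signal at least 2-fold lower in discs that lacked Myb than in control discs. A transcript was taken as bright when all 6 biological replicates had a signal of at least 1000 (linear array signal intensity), which held for 7982 of the 16637 transcripts tested and of the 21051 in the table. A bright transcript entered the set when its mean log2 signal was lower by at least 1 in the mutant than in the control and all 3 mutant replicates lay below all 3 control replicates. Of all bright transcripts, 14.9% met the last condition alone (14.5% of all transcripts tested), and 0.476% had a difference that large. The transcript of *Myb* that met these conditions was left out. Because the same signals chose the transcripts, their differences between genotypes are given as a description without a test.

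Mutant discs came from male 3rd instar larvae hemizygous for the X-linked *Myb* MH107 allele. Mobilization of a P element by the Delta2-3 transposase had removed the 5′ end of *Myb* together with the neighboring *AlkB* gene, on a chromosome that also carries w1118. Mutant males were picked by the absence of the GFP that marks the balancer chromosome, and they die as early pupae. Control discs came from male 3rd instar larvae of the yw67 stock (yellow body, white eyes), the stock to which the mutant line had been repeatedly outcrossed. All flies were kept at 25°C. Each genotype had 3 biological replicates, hybridized to 12 mutant and 11 control arrays (4 arrays for each replicate, 3 for control replicate 3), and arrays of 1 replicate were averaged on the log2 scale. A single mutant allele was studied, and the number of animals behind each replicate is not given in the sources used here.

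Myb proteins bind DNA and regulate transcription. Flies have a single Myb, a subunit of the conserved dREAM complex that contains E2F and retinoblastoma-family proteins, and it is best known for sustaining genes of G2 and mitosis in dividing tissues. The wing disc is an epithelial sac that grows by cell division during larval life and differentiates when the steroid hormone ecdysone triggers metamorphosis. Its basal side is lined by a basement membrane, to which circulating blood cells (hemocytes) and the fat body contribute. The lowered transcripts are described by what their products do.

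The arrays had been normalized together, with medians of 996 to 1060 signal units, a median correlation of 0.999 between arrays of 1 replicate, and correlations of at least 0.993 between biological replicates of 1 genotype. Of the 39 genes on a wing disc list, 5 could be identified by name, with replicate signals from 609.9 for *Ubx* to 10009 for *eyg*. Names were at hand mainly for transcripts with low p-values between the genotypes, so these signals are no check of tissue identity. All 12 mutant arrays lay below all 11 control arrays for each of the 37 transcripts. In the mutant, their replicate signals ranged from 1002 to 12823 with a median of 2295, and in the control from 1996 to 26475 with a median of 6684. The median control level over all bright transcripts was 6202. The difference (mutant minus control, log2) ran from -3.43 to -1.01 with a median of -1.18, against a median of 0.0021 over all bright transcripts. It lay between -1.2 and -1 for 20 of the 37, so most of the set sat close to the limit that defined it. Transcripts at least 3-fold lower numbered 9, at least 4-fold lower 8, and at least 8-fold lower 2. In 14 of the 37 the lowest control replicate was at least 2-fold above the highest mutant replicate, and the narrowest gap, for *CG13023*, was 1.40-fold.

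**Figure D1:**
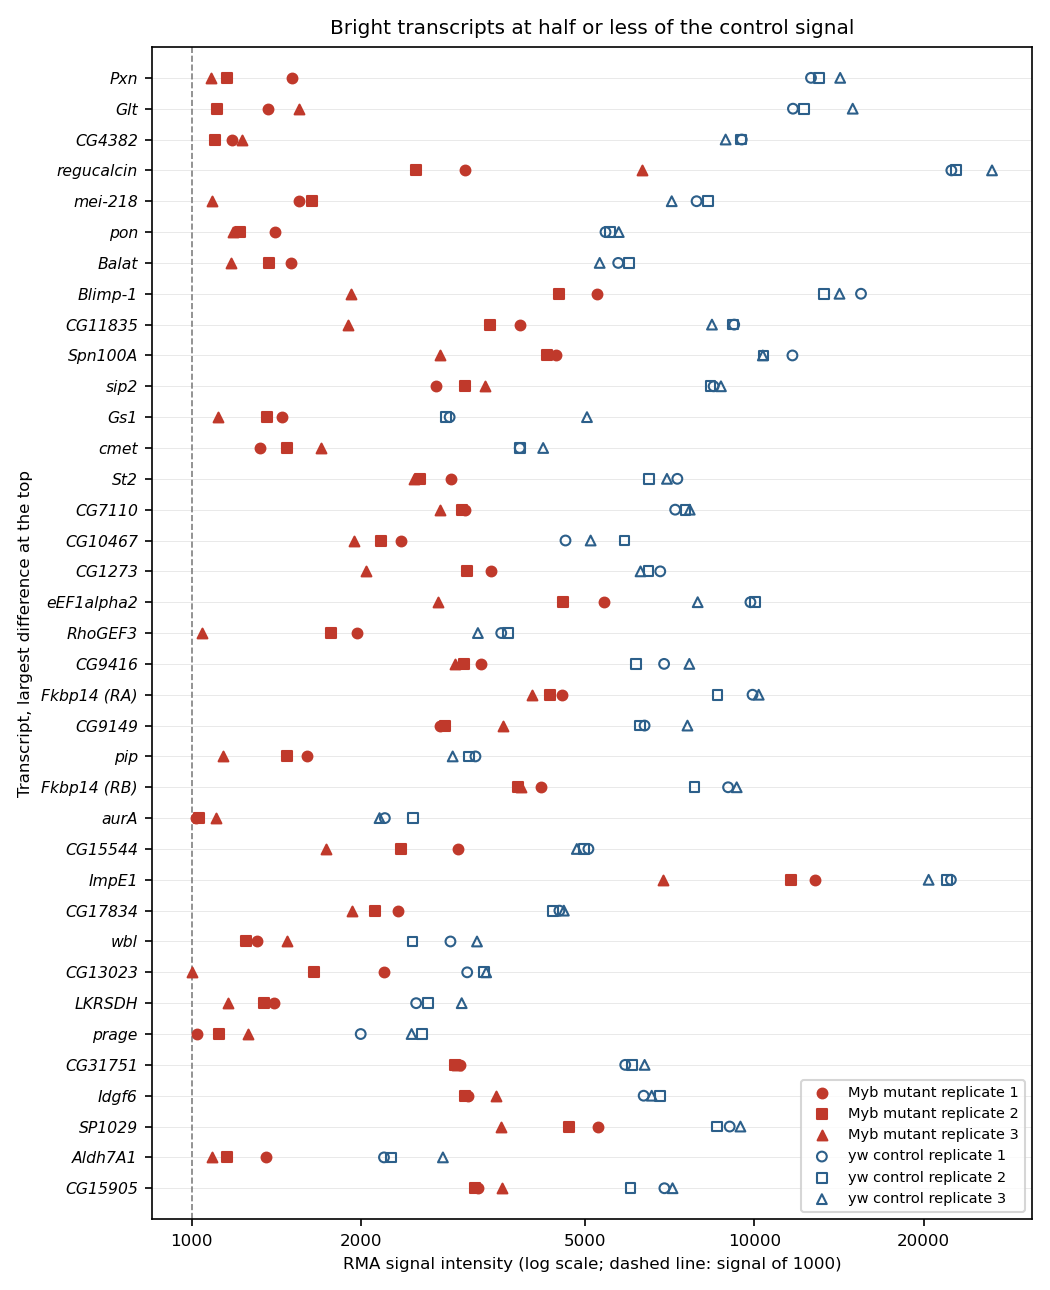
RMA signal intensity (log axis) of each of the 37 transcripts in the 3 *Myb* mutant replicates (filled) and the 3 *yw* control replicates (open), ordered by the difference between genotypes, with the dashed line at the signal minimum of 1000. For every transcript the mutant symbols lie to the left of the control symbols, and in several (*Blimp-1*, *CG11835*, *ImpE1*) mutant replicate 3 sits apart from mutant replicates 1 and 2.

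The largest differences were those of *Pxn* and *Glt*, which encode proteins of the extracellular matrix. *Pxn* encodes peroxidasin, a secreted heme peroxidase that crosslinks collagen IV and is made in large amounts by hemocytes. Its transcript (FBtr0072951, chromosome arm 3L) had signals of 1505, 1153 and 1083 in the mutant replicates, against 12616, 13021 and 14218 in the control replicates, and was 10.8-fold lower (10.27 ± 0.25 in the mutant and 13.70 ± 0.09 in the control, log2 mean ± SD, n = 3 each). *Glt* (FBtr0079725, 2L) encodes glutactin, a glycoprotein of basement membranes, and measured 1365, 1107 and 1553 in the mutant, against 11718, 12266 and 14966 in the control, 9.71-fold lower (10.38 ± 0.25 and 13.66 ± 0.19, log2 mean ± SD). In both transcripts the mutant replicates lay far below the control replicates and spread more than the median of the set. *Glt* overlaps *CG9287* in the RefSeq annotation and *Pxn* overlaps *CG16986*. The labelled cDNA was double stranded, so the arrays did not separate the strands of overlapping genes.

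Most identified markers of hemocytes were also lower in the mutant. Genes of the lists used here could be identified only from a sheet of 1999 named transcripts, which had low p-values in the same comparison, so the identified genes of a list are not a fair sample of it. The sheet named all 234 transcripts called at an adjusted p under 0.001 and 1062 of the 1066 called at 0.05, and counts of calls are therefore set against every gene listed. All lists were chosen with earlier results of these data known. Shares over all transcripts are given for scale, and no enrichment of a list is read from them. In a list of 40 genes of hemocytes and the basement membrane, 19 could be identified by name, 2 of which are *Pxn* and *Glt*. Of the 38 other genes listed (17 identified), 8 fell and 0 rose at an adjusted p under 0.001 with a signal of at least 500 (limma, Benjamini-Hochberg adjustment over all 16637 transcripts, two-sided), where 0.619% of all transcripts fell and 0.787% rose. With the replicate number as a block, 4 fell and 0 rose, where 0.108% of all transcripts fell and 0.258% rose. Leaving out 1 replicate gave 4 to 8 lower calls, with 4 without mutant replicate 1, 5 without mutant replicate 2 and 4 without control replicate 3, and *Hml*, *Sr-CI* and *PPO1* were among them each time. At an adjusted p under 0.05, 14 of the 38 fell and 1 rose (2.98% and 3.43% of all transcripts). The 1 that rose was *PPO3*, a prophenoloxidase gene named after its values were seen. It averaged 1204 in the mutant and 635 in the control (0.92 on the log2 scale, SE 0.09, adjusted p = 0.00187, limma), against the direction of the other 2 prophenoloxidase genes. The prophenoloxidase genes *PPO2* and *PPO1*, markers of crystal cells, averaged 156 and 113 signal units in the mutant and 13733 and 8467 in the control (geometric means). *Hml*, which encodes the clotting protein hemolectin of plasmatocytes, fell by 4.12 on the log2 scale (SE 0.14, adjusted p = 1.9e-05), to 202 in the mutant against 3517 in the control. The scavenger receptor gene *Sr-CI* fell by 3.15 (SE 0.10, adjusted p = 1.25e-05), and *NimC1*, *srp*, *eater* and *NimB4* fell too, with changes of -2.94 to -2.51.

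The collagen IV genes of the list differed by less than 1 on the log2 scale. Their transcripts were bright with no overlap between genotypes, so a larger fall would have placed them in the set. Nothing is read from their contrast with *Pxn* and *Glt*. *Col4a1* and *vkg*, which encode the chains of collagen IV and were picked here after their values were seen, averaged 14620.2 and 5170.2 in the mutant and 20753 and 7794 in the control, and fell by 0.51 and 0.59 on the log2 scale (adjusted p = 0.00927 and 0.022, limma). The lowest replicate signal among the identified genes of the list was 42 for *He*, where transcripts with an identical value on every array stood at 14.158. The part of background in signals this low was not tested. Summed over the 17 genes, the signal was 45144 to 49910 in the mutant replicates and 100225 to 114049 in the control replicates. The part of hemocyte RNA in the lower *Pxn* and *Glt* signals was not tested. In bulk samples such as these, fewer cells of a type and less RNA per cell cannot be told apart.

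**Figure D2:**
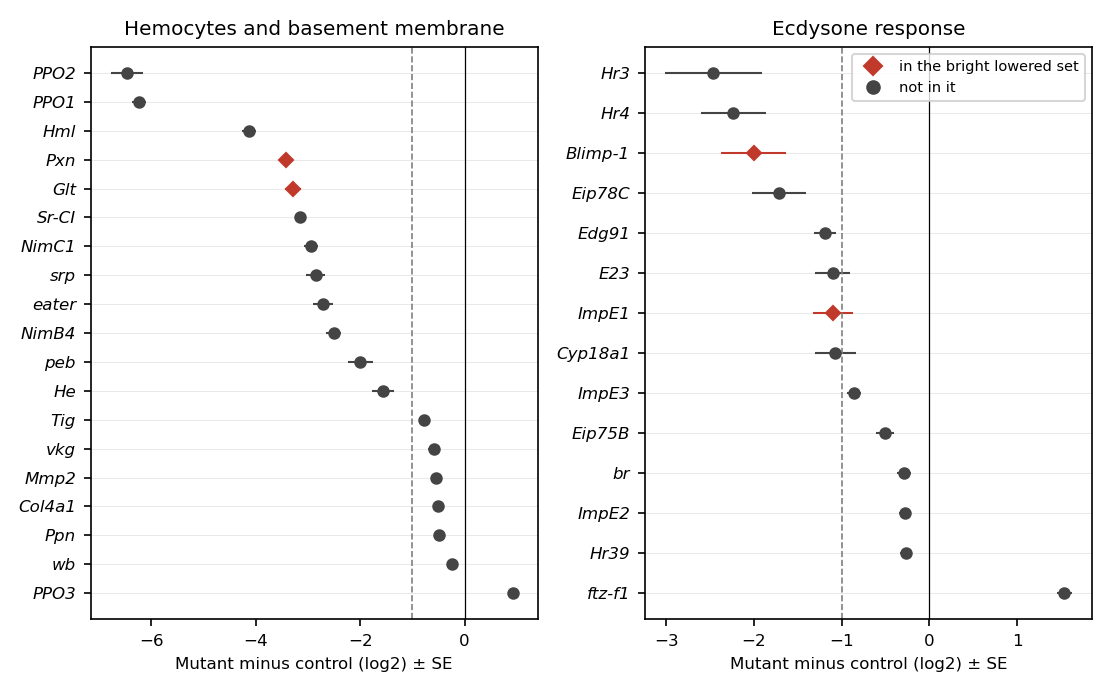
Difference in log2 signal (mutant minus control, with the SE of the linear model over 3 mutant and 3 control replicates) for the identified genes of the lists for hemocytes and basement membrane (left) and the ecdysone response (right), with dashed lines at -1. Red diamonds mark *Pxn*, *Glt*, *Blimp-1* and *ImpE1*, *ftz-f1* is the right-most gene of the ecdysone list at 1.54 and *PPO2* the left-most of the hemocyte list at -6.46.

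Genes of the ecdysone response were represented by *Blimp-1* and *ImpE1*. Ecdysone binds a nuclear receptor that switches on a cascade of early and late genes, several of which encode further nuclear receptors. Blimp-1 is an ecdysone-induced transcriptional repressor that delays *ftz-f1*, the gene of a nuclear receptor of the prepupal stage. The *Blimp-1* transcript (FBtr0077089, 3L) measured 5255, 4498 and 1918 in the mutant, against 15483, 13303 and 14177 in the control, 4.01-fold lower on average (11.80 ± 0.78 and 13.80 ± 0.11, log2 mean ± SD, n = 3 each). Mutant replicate 3 was well below the other mutant replicates, and without it the difference was -1.56. *ImpE1* encodes an ecdysone-inducible membrane protein of the discs and was among the brightest transcripts of the set. It measured 12823, 11617 and 6879 in the mutant, against 22371, 21992 and 20423 in the control, 2.14-fold lower (FBtr0076606, 3L), and again mutant replicate 3 was the lowest. Without that replicate the difference was -0.82, outside the limit of -1.

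Of 41 genes of the ecdysone response, a list also chosen with earlier results of these data known, 14 could be identified by name. Among the 39 listed besides *Blimp-1* and *ImpE1* (12 identified), 0 fell and 1 rose at an adjusted p under 0.001 in limma (0.619% and 0.787% of all transcripts). At an adjusted p under 0.05, 9 fell and 1 rose (2.98% and 3.43% of all transcripts), and at an unadjusted p under 0.05, 11 fell and 1 rose (6.35% and 8.22% of all transcripts, of which 1661 of 2425 had a name). After adjustment, the test named in the study's methods, run here on replicate means, called 0 of them at 0.001. Run in this way, it is not a repeat of the authors' test, and nothing is read from its count. The gene that rose was *ftz-f1*, which averaged 10049 in the mutant and 3461 in the control (1.54 on the log2 scale, SE 0.09, adjusted p = 0.00017, limma; 0.00251 with the replicate block). Its call at 0.001 was kept without control replicate 2 and lost when any other replicate was left out. *Hr4*, which encodes a nuclear receptor induced by ecdysone, would have been in the set but for 1 replicate below the signal minimum. It averaged 1768 in the mutant and 8314 in the control (-2.23, SE 0.37, adjusted p = 0.0148). The nuclear receptor genes *Eip78C* and *Hr3*, the transporter gene *E23* and *ImpE3*, named after their values were seen, fell too, with changes of -1.71, -2.46, -1.10 and -0.86 (adjusted p = 0.0213, 0.0468, 0.0219 and 0.00166). With the replicate block, *Hr3* had an adjusted p of 0.0522.

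Mutant replicate 3 was low for part of the list. It was at least 0.5 (log2) below the mean of mutant replicates 1 and 2 for 7 of the 14 genes and at least 0.5 above it for 0. Without mutant replicate 3, a comparison added after the data were seen, 8 of the 39 fell and 1 rose at an adjusted p under 0.05, where 3.31% of all transcripts fell and 3.65% rose. *Hr4* then fell by 1.79 (adjusted p = 0.0018) and *Eip78C* by 1.34 (adjusted p = 0.00217).

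Genes of chromosomes and cell division made up 4 of the 36. Partner of numb, encoded by *pon*, helps to place cell fate determinants asymmetrically in a dividing cell. Its transcript (FBtr0070681, X) measured 1407, 1216 and 1182 in the mutant, against 5439, 5543 and 5742 in the control, 4.41-fold lower (10.30 ± 0.13 and 12.44 ± 0.04, log2 mean ± SD, n = 3 each). The kinetochore kinesin CENP-meta, encoded by *cmet*, carries chromosomes along spindle microtubules. *cmet* (FBtr0080215, 2L) measured 1321, 1474 and 1699.8 in the mutant, against 3828, 3835 and 4214 in the control, 2.65-fold lower. *aurA* encodes Aurora A, the kinase that matures centrosomes and organizes the spindle, and its transcript (FBtr0082483, 3R) was the dimmest of the 3. It measured 1018, 1028 and 1104 in the mutant, against 2204, 2469 and 2156 in the control, 2.17-fold lower (10.04 ± 0.06 and 11.15 ± 0.11). The mutant SDs of these 3 genes were 0.13, 0.18 and 0.06 (log2), where the median of the set was 0.179. The gaps between the lowest control and the highest mutant replicate were 3.87-, 2.25- and 1.95-fold.

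*mei-218* encodes an MCM-like protein needed for meiotic crossovers and is transcribed together with *mei-217*. Its transcript (FBtr0100639, X) measured 1548, 1638 and 1086 in the mutant, against 7898, 8271 and 7133 in the control, 5.53-fold lower. This was the largest difference in the group, in a tissue that does not undergo meiosis. RefSeq places *mei-217* over the same stretch, so the signal cannot be assigned to *mei-218* alone.

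Most other identified division genes differed by less. The rule fixed this for bright transcripts, since those that fell by at least 1 with no overlap were in the set. In a list of 82 genes of mitosis and cell division, 37 could be identified by name. Of the 79 listed besides *pon*, *cmet* and *aurA* (34 identified), 2 fell and 0 rose at an adjusted p under 0.001 (limma; 0.619% and 0.787% of all transcripts). At an adjusted p under 0.05, 25 fell and 0 rose (2.98% and 3.43% of all transcripts). This list too was chosen with earlier results of these data known, so no enrichment is read from its counts. At an unadjusted p under 0.05, 32 fell and 1 rose (6.35% and 8.22% of all transcripts). With the replicate block, the count at 0.001 was 0, and that at 0.05 was 17 lower and 1 higher, where 2.7% of all transcripts fell and 2.95% rose. The test named in the study's methods, run here on replicate means and so not a repeat of the authors' test, gave 0 at 0.001. Nothing is read from that count. The calls at 0.001 numbered 2 without control replicate 2, 1 without mutant replicate 3 and 0 without any of the other replicates. The median difference of the 34 was -0.42, whereas that over all transcripts tested was -0.0057. Since names favored low p-values and the rule took out bright genes with larger falls, this median is not that of the whole list. The genes called were *Sse*, which encodes separase (943 in the mutant and 2076 in the control, -1.14 on the log2 scale, SE 0.08, adjusted p = 0.000406), and *cort*, which encodes an activator of the anaphase-promoting complex in the female germline (177 in the mutant and 505 in the control, -1.51, SE 0.11, adjusted p = 0.000538). Summed over the 34 genes, the signal was 171151 to 173422 in the mutant replicates and 220730 to 225653 in the control replicates, and none of the 37 had mutant replicate 3 at least 0.5 away from the other mutant replicates.

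The secretory pathway was represented by 4 transcripts of 3 genes. *Fkbp14* encodes a prolyl isomerase of the endoplasmic reticulum, where collagens and other secreted proteins fold, and was the only gene with more than 1 transcript in the set. *Fkbp14* RA (FBtr0071703, 2R) measured 4544, 4326 and 4025 in the mutant, against 9931, 8604 and 10185 in the control, and *Fkbp14* RB (FBtr0071702) measured 4172, 3803 and 3845 in the mutant, against 8985, 7829 and 9307 in the control. The differences were -1.15 and -1.14. Transcripts of 1 gene can share probes and are not independent measurements.

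*wbl* (windbeutel) and *pip* (pipe) belong to a pathway known from the ovary, in which the chaperone Windbeutel lets the sulfotransferase Pipe leave the endoplasmic reticulum for the Golgi. *wbl* (FBtr0086510, 2R) measured 1308, 1247 and 1475 in the mutant, against 2883, 2467 and 3214 in the control, 2.12-fold lower. The RL transcript of *pip* (FBtr0075013, 3L) measured 1600.2, 1479 and 1136 in the mutant, against 3193, 3113 and 2909 in the control, 2.21-fold lower. In a list of 35 genes of folding and secretion in the endoplasmic reticulum, 6 could be identified by name, and of the 33 listed besides *Fkbp14* and *wbl* (4 identified), 0 fell and 0 rose at an adjusted p under 0.001 or under 0.05 in limma. All 4 identified were lower at an unadjusted p under 0.05 (limma; 6.35% of all transcripts were), with a median difference of -0.16. Names favored low p-values and 29 of the 33 were not identified, so nothing is read from that count or median. The test named in the study's methods, run here on replicate means, called 0 of the identified genes after adjustment. Over all transcripts it called 1 lower and 16 higher at 0.001, so nothing is read from its count in a list. Run in this way, it is not a repeat of the authors' test.

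Metabolic and related enzymes and the calcium-binding protein regucalcin made up 6 of the genes. *regucalcin* had the highest control signal of the set. Its RA transcript (FBtr0073575, X) measured 3066, 2507 and 6319 in the mutant, against 22414, 22823 and 26475 in the control, 6.53-fold lower on average (11.83 ± 0.70 and 14.54 ± 0.13, log2 mean ± SD, n = 3 each). Mutant replicate 3 was the highest of the mutant replicates here, the reverse of its place in *Blimp-1* and *ImpE1*, and without it the difference was -3.10. *LKRSDH* and *Aldh7A1* encode enzymes of lysine breakdown. *LKRSDH* measured 1159 to 1400.2 in the mutant and 2505 to 3018 in the control. *Aldh7A1* (FBtr0075017, 3L) measured 1353, 1153 and 1087 in the mutant, against 2196, 2262 and 2795 in the control. Both stood near the limit, with differences of -1.06 and -1.01, and leaving out replicate 3 of the mutant gave -0.98 and -0.94. *Gs1*, the gene of the mitochondrial glutamine synthetase, measured 1447, 1361 and 1111 in the mutant, against 2873, 2832 and 5042 in the control, so that the control spread was set by control replicate 3. *CG9149*, now named *Acat2* and encoding an acetyl-CoA acetyltransferase, measured 2762 to 3580.5 in the mutant and 6273 to 7608 in the control (2.22-fold lower). *St2*, a sulfotransferase gene, measured 2485 to 2888 in the mutant and 6499.7 to 7299 in the control (2.63-fold lower).

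*regucalcin* and *Idgf6* were also on a list of 27 fat body genes, whose other identified genes had higher means in the mutant. The rule fixed the direction of these 2, and the list was chosen with earlier results known, so nothing is read from the contrast. Idgf6 is a secreted, chitinase-like protein named as an imaginal disc growth factor, and its transcript (FBtr0087111, 2R) measured 3099, 3063 and 3479.6 in the mutant, against 6359, 6796 and 6572 in the control, 2.05-fold lower. Of the 25 other list genes (11 identified by name), 0 fell and 1 rose at an adjusted p under 0.001 (limma; 0.619% and 0.787% of all transcripts). At an adjusted p under 0.05, 0 fell and 11 rose (2.98% and 3.43% of all transcripts). With the replicate block 6 rose at 0.05, where 2.95% of all transcripts did. The direction of the 14 genes not identified is not known. The gene called was *Lsd-1*, which encodes a perilipin of lipid droplets (6615 in the mutant and 581 in the control, 3.51 on the log2 scale, SE 0.12, adjusted p = 2.06e-05). *Lsp1beta*, the gene of a larval serum protein, picked after its values were seen, averaged 22904 in the mutant and 2835 in the control. Summed over the 11 genes, the signal was 56619 to 107219 in the mutant replicates and 6119 to 14404 in the control replicates, with mutant replicate 3 the highest. That replicate was at least 0.5 above the mean of the other mutant replicates for 8 of the 13 list genes, *regucalcin* included. The part of fat body RNA in the *regucalcin* signal of mutant replicate 3 was not tested.

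Secreted, transport and surface proteins made up 4 of the genes, of which *Idgf6* is given above. *Balat*, named as a beta-alanine transporter gene, measured 1501, 1369 and 1175 in the mutant, against 5729, 5993 and 5311 in the control (FBtr0087815, 2R), 4.23-fold lower. Its SD was 0.18 in the mutant and 0.09 in the control (log2). *Spn100A*, which encodes a serpin (serine protease inhibitor), measured 4438, 4275 and 2762 in the mutant, against 11692, 10385 and 10358 in the control (FBtr0085698, 3R), 2.88-fold lower, with mutant replicate 3 the lowest. *SP1029*, which encodes an aminopeptidase, lay near the limit. It measured 5264, 4681 and 3539.8 in the mutant, against 9044, 8574 and 9450.5 in the control (FBtr0085398, 3R), a difference of -1.02, and of -0.86 without mutant replicate 3.

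Of the 4 genes of translation, RNA and signaling, *CG11835* showed the largest difference. It is now named *uncNacbeta*, a relative of the beta subunit of the nascent polypeptide-associated complex, which binds new proteins at the ribosome. *CG11835* (FBtr0078076, 2L) measured 3825, 3384 and 1891 in the mutant, against 9212, 9154 and 8411 in the control, 3.07-fold lower. *eEF1alpha2*, which encodes a form of the elongation factor that brings charged tRNAs to the ribosome, measured 5410.1, 4574 and 2739.9 in the mutant, against 9846, 10016 and 7933 in the control, 2.26-fold lower. *RhoGEF3*, the gene of a guanine nucleotide exchange factor, measured 1964, 1769 and 1044 in the mutant, against 3549, 3652 and 3226 in the control, 2.26-fold lower. In these 3 genes mutant replicate 3 was more than 0.5 (log2) below the mean of mutant replicates 1 and 2, and the difference of the last 2 without it was -0.89 and -0.90. *prage*, which encodes a protein with an exonuclease domain, did not share this pattern, at 1022, 1117 and 1256 in the mutant, against 1996, 2562 and 2459 in the control (FBtr0070304, X). The array's transcripts of *RhoGEF3* and *prage* carry the older gene names *CG13882* and *CG14801*, and RefSeq places *prage* over *Adar* and 3 other protein-coding genes, so their signals may not represent the whole current genes.

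The remaining 11 genes are described without a role. *CG4382* (FBtr0114535, 2L) followed *Pxn* and *Glt* in size of difference and varied little between replicates, at 1179.7, 1101 and 1229 in the mutant, against 9501, 9469 and 8895 in the control, 7.94-fold lower (10.19 ± 0.08 and 13.18 ± 0.05, log2 mean ± SD, n = 3 each). *sip2*, named for an interaction with a septin, measured 2715 to 3323 in the mutant and 8361 to 8725 in the control (2.82-fold lower). *CG7110* and *CG10467* were 2.54- and 2.41-fold lower. *CG31751* showed the smallest mutant spread, at 3002, 2941 and 2965 in the mutant, against 5897, 6069 and 6384 in the control. *CG13023* showed a wide one, at 2198, 1648 and 1002 in the mutant, against 3087, 3307 and 3337 in the control, and its lowest replicate cleared the signal minimum by the smallest margin. *CG15905* had the smallest difference of the set (-1.01), at 3233, 3189 and 3566 in the mutant, against 6922, 6027 and 7157 in the control. *CG1273*, *CG9416*, *CG15544* and *CG17834* had differences of -1.23, -1.16, -1.11 and -1.09.

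**Figure D3:**
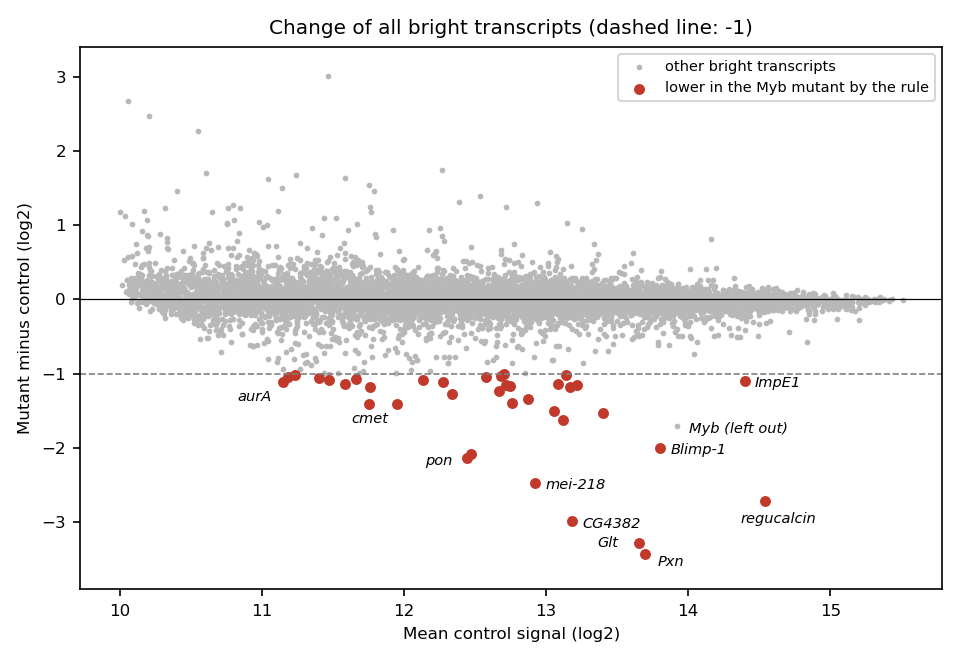
Difference between genotypes (mutant minus control, log2) against the mean control signal (log2) for all 7982 bright transcripts, with the 37 of the set in red and the dashed line at -1. The set is dense just under the line and thin below -2, where *Pxn*, *Glt*, *CG4382*, *regucalcin*, *mei-218*, *pon*, *Balat* and *Blimp-1* lie.

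Beyond the 37, 14 further transcripts of these genes could be identified, 10 of them of *pip*, and all 14 had all 3 mutant replicates below all 3 control replicates (14.5% of all transcripts tested). Transcripts that differed less between genotypes were rarely named, so nothing is read from that count. *Pxn* RB measured 547, 421 and 389 in the mutant, against 6226, 7688 and 7185 in the control, 15.7-fold lower, below the signal minimum in the mutant only. *regucalcin* RD measured 969, 811 and 1858 in the mutant, against 5825, 6371 and 6129 in the control, with mutant replicate 3 again the highest. *ImpE1* RB measured 1338, 1247 and 673 in the mutant, against 3789, 3212 and 3237 in the control, with mutant replicate 3 again the lowest. *CG17834* RB differed by -0.93, and the 10 *pip* transcripts by -0.999 to -1.58, at mutant geometric means of 173 to 1421 signal units. The part of shared probes in this likeness was not tested.

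The rule's limits fell within a continuum. The transcripts just outside the limit on the difference were *pip* RA (-0.999), *CG9503* (-0.995) and *CG4586* (-0.991), against *CG15905*, *Aldh7A1* and *SP1029* just inside. By the lowest replicate signal, *CG13023* (1002), *aurA* (1018) and *prage* (1022) were just inside, and *CG11380* (980.4), *CG1265* (961) and *Hr4* (959) just outside. The omitted *Myb* transcript (FBtr0074169, X) measured 4586, 4929 and 4717 in the mutant, against 15216, 15119 and 16233 in the control.

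Mutant replicates of the set varied more than those of bright transcripts at large. The median SD over the 37 was 0.179 in the mutant and 0.0938 in the control (log2, n = 3 each), and over all bright transcripts 0.0983 in the mutant and 0.0586 in the control. The spread between arrays of 1 replicate, at a median SD of 0.0508, was close to that of bright transcripts (0.0476). For comparison, the 38 bright transcripts that were higher in the mutant by the mirrored rule had a median SD of 0.0989 in the mutant, against 0.0954 in the control. The mutant SD exceeded the control SD in 26 of the 37 (70.3%) and in 76.8% of bright transcripts, so the direction of that inequality was common to both.

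Mutant replicate 3 was often the replicate that departed. It was the lowest mutant replicate for 24 of the 37 (64.9%) and for 47.9% of bright transcripts. It lay at least 0.5 (log2) below the mean of mutant replicates 1 and 2 for 10 of the 37 (27.0%), for 1.54% of bright transcripts (123 of 7982) and for 0 of the 38 that were higher. These 10 were *Blimp-1* (-1.34), *CG11835* (-0.93), *CG13023* (-0.92), *eEF1alpha2* (-0.86), *RhoGEF3* (-0.84), *ImpE1* (-0.83), *CG1273* (-0.67), *Spn100A* (-0.66), *CG15544* (-0.61) and *mei-218* (-0.55). The rule used the mutant mean, so a single low mutant replicate helps a transcript to enter, and these shares carry no test. *regucalcin* was the only one of the 37 with mutant replicate 3 at least 0.5 above the others (1.19), a departure seen in 271 of the 7982 bright transcripts, and *Gs1* was the only one with control replicate 3 at least 0.5 away (0.82). Without mutant replicate 3, the difference of 9 of the 37 was smaller than 1 in size (-0.997 to -0.769), 5 of them among the 10. Without control replicate 3 it was smaller than 1 in size for 5 (*wbl*, *LKRSDH*, *SP1029*, *Aldh7A1* and *CG15905*).

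**Figure D4:**
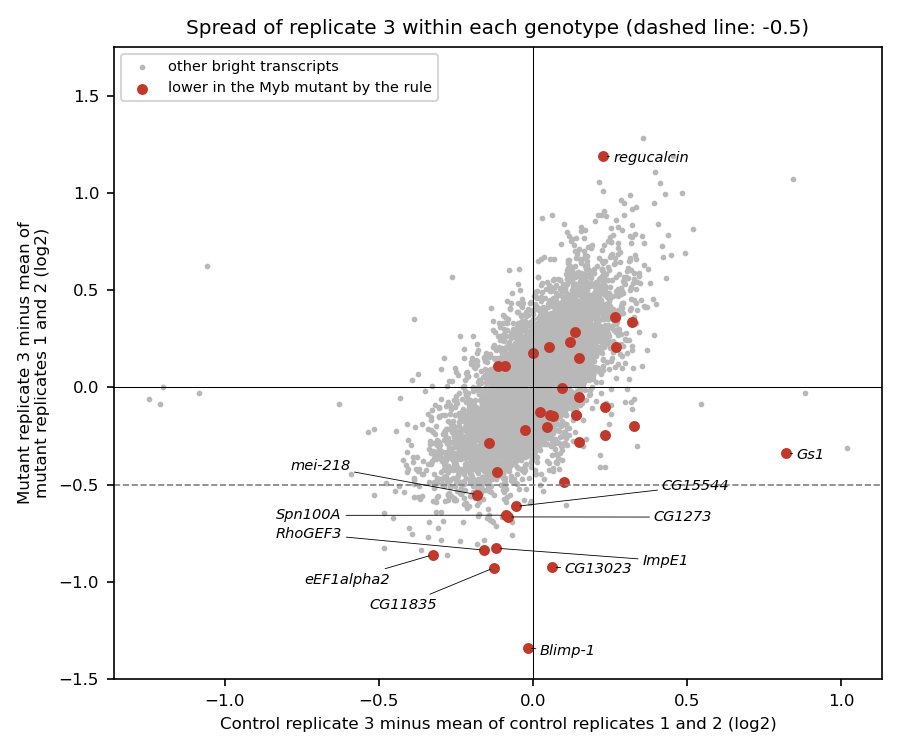
For each bright transcript, the log2 signal of mutant replicate 3 minus the mean of mutant replicates 1 and 2 (vertical axis) against the same difference for control replicate 3 (horizontal axis), with the 37 of the set in red and the dashed line at -0.5. The 10 labelled transcripts under the line depart in the mutant while their control replicate 3 stays within 0.5 of the other control replicates, *regucalcin* departs upward and *Gs1* departs in the control.

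In the fit over all transcripts, 17 of the 37 were called lower at an adjusted p under 0.001 (limma), where 0.619% of all transcripts and 0.326% of bright transcripts were. At an adjusted p under 0.05 the count was 36, with *CG13023* the exception, where 2.98% of all transcripts were called lower. With the replicate number as a block, *Glt* and *CG4382* were called at 0.001 (2 of 37, against 0.108% of all transcripts) and 35 at 0.05. The rule used the same contrast, so nothing is read from these counts.

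The genes were spread over the major chromosome arms, with 10 on 2L, 6 on 2R, 10 on 3L, 6 on 3R and 4 on the X chromosome. In the order of protein-coding genes in RefSeq (Release 6), *CG17834* and *Glt* were the closest pair with 1 gene between them, followed by *Aldh7A1* and *pip* with 6, *Spn100A* and *CG15544* with 12, and *wbl* and *CG9416* with 19. All other neighbors on an arm were further apart, with at least 35 genes between them. An overlap with another annotated gene was found for 20 of the 36 genes, and with a protein-coding gene for 17, including *aurA* (*CG12213*), *cmet* (*ab*), *Gs1* (*ND-15*) and *regucalcin* (*Chrac-16*). No genome or sequence table was used here, so no sequence of these genes is shown.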

How the data were processed

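Wing disc RNA from 3 biological replicates of each genotype was converted to random-primed, double-stranded cDNA, labelled with Cy3 and hybridized to one-color NimbleGen expression arrays, per the study's methods. The authors used the RMA algorithm of the ArrayStar software, which subtracts background, equalizes the arrays by quantiles and combines the probes of a transcript by median polish, and deposited 1 linear signal intensity per transcript and array. Of 21051 transcripts, 4414 were left out because every array (23) gave them the identical value of 14.158. The table had 0 further columns of sample values. Slides, scan dates and detection flags were not analysed here. The number of arrays and replicates limits the precision, and p-values measure the spread between the 3 replicates of each genotype.

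Signals were converted to log2 and arrays of 1 replicate averaged. The set was found by its rule, and differences are mutant minus control means. The 16637 transcripts with varying values were compared with lmFit and eBayes (limma 3.58.1, R 4.3.3), two-sided, with Benjamini-Hochberg adjustment. A transcript was called at an adjusted p under 0.001 with a signal of at least 500 in 1 or more replicates, the thresholds of the study's methods. The fit was also run on simulated data with independent replicates. These lack the correlation described next, so they do not test its effect on the calls. Within each replicate number, the departures of the mutant and of the control from their own means correlated at 0.200, 0.181 and 0.277 (numbers 1, 2 and 3) over all transcripts and at 0.188, 0.377 and 0.552 over the 9295 with a mean log2 signal equal to at least 500 signal units, so the numbers were also fitted as a block. Their source is not stated, as the labels give no shared day or batch.

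Gene names came from a supplementary sheet of the study, held in part (1999 transcripts), and served for identity alone. All 37 transcripts and all 234 called ones had a name, and current names and gene order came from RefSeq (Release 6). A list gene was represented by its identified transcript with the highest mean signal. Every gene of the set could be named. Replicate values were given for genes on a list, the 10 largest differences, genes with more than 1 transcript and those next to a limit, and for others where described. Genes outside the set were named when they were called list genes, next to a limit or chosen after their values were seen, as stated. The rule, the set and the lists were chosen with earlier results of these data known. Besides the lists described, 114 cuticle and chitin genes, 19 of disc myoblasts, 17 of the trachea, 14 of neurons and glia and the 39 of the wing disc were examined. Alternatives were other signal and fold limits, another threshold, and no signal minimum or one set before the test. Others were a Student's t-test on the 6 replicate means, the replicate block, the first array alone and linear averaging. A robust eBayes prior with an intensity trend, renormalization by quantiles or by array medians, and each replicate left out were also tried. The study's methods name a Student's t-test without stating whether arrays or replicate means were compared. The array p-values it prints are far smaller than a t-test on 6 replicate means would give, so single arrays were probably compared. The t-test here is therefore not a repeat of the authors' test.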

Additional observations from a re-analysis of the deposited data

How the results depend on the processing

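The set of 37 (and the 38 higher by the mirrored rule) numbered 67 (70) with a signal minimum of 500, 16 (17) with 2000, 70 (77) with the minimum on the mean signal, and 10 (11) with a difference of at least 1.5. Averaging arrays on the linear scale, the first array alone, median centring and a second quantile normalization gave 37 to 41 (35 to 38), and leaving out 1 replicate gave 33 to 46 (35 to 45). Of 370 recomputed differences of the 37 transcripts, 369 moved by less than the replicate SD and 0 changed sign, over a range of -3.57 to -0.77. For the settings that left out 1 replicate, both outcomes were fixed in advance. Dropping 1 of 3 replicates cannot move a difference by the pooled SD, and the rule had set all mutant replicates below all control replicates. Those settings therefore add nothing to the count. The exception was *CG31751*, at -0.99 with the first array alone.

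Calls over all transcripts depended more on the test. The 103 lower and 131 higher calls became 496 and 570 at an adjusted p under 0.05. With the replicate number as a block they became 18 and 43. By a t-test on the 6 replicate means they became 1 and 16 (1141 and 1415 at an unadjusted p under 0.05). Leaving out 1 replicate gave 24 to 139 lower and 45 to 178 higher calls. The lower and higher counts were 25 and 45 without mutant replicate 1, 24 and 47 without mutant replicate 2, 53 and 68 without mutant replicate 3, 42 and 64 without control replicate 1, and 42 and 58 without control replicate 3. Among the 130 list genes identified, the 20 lower and 4 higher calls became 77 and 23 at 0.05, 5 and 1 with the block, and 63 and 16 with the block at 0.05, a setting added after the data were seen. The t-test on the 6 replicate means gave 0 and 0 (96 and 26 at an unadjusted p under 0.05). A robust prior with an intensity trend gave 30 and 7, and leaving out 1 replicate 8 to 21 and 1 to 7. The cause was not tested. Other settings stayed within 1.5 times of these counts, apart from those of single lists.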

Other observations

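Some further lists hold none of the 37 transcripts. Of 114 cuticle and chitin genes (27 identified), 2 fell and 2 rose at an adjusted p under 0.001 (limma), where 0.619% and 0.787% of all transcripts did, and 11 fell and 9 rose at 0.05, where 2.98% and 3.43% did. With the replicate block, 0 fell and 0 rose at 0.001, and 9 fell and 7 rose at 0.05. At 0.001, 4 were called without control replicate 2, 0 without mutant replicate 2 and 1 without any of the other replicates. *Vajk1* fell to 122 signal units in the mutant, against 2987 in the control, and *Cpr65Ec* to 432 against 1703, whereas *Vajk2* and *Vajk3*, which like *Vajk1* are named for cuticle proteins, rose by 0.94 and 1.31 on the log2 scale. Of 17 tracheal genes (3 identified), *btl*, the fibroblast growth factor receptor gene of the trachea, fell by 1.32 (SE 0.11, adjusted p = 0.000904, limma; 0.00895 with the replicate block) and 2 fell at 0.05. The call of *btl* at 0.001 was kept without mutant replicate 1 and lost when any other replicate was left out. At 0.001, 0 of 6 identified myoblast genes, 0 of 5 wing disc genes and 0 of 1 gene of neurons and glia were called. At 0.05, 2 myoblast genes fell and 1 rose, and 3 wing disc genes fell. At an unadjusted p under 0.05 in limma, 4 fell and 1 rose in each of these 2 lists (6.35% and 8.22% of all transcripts). Names favored low p-values, so nothing is read from these unadjusted counts. The t-test on the 6 replicate means called 0 in every list at an adjusted p under 0.001.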
